A study of Mus musculus with 20 samples.

Results

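The strongest shared CTCF regions are the places in the genome that ranked among the highest CTCF peaks in every CTCF library of the series, with and without thymine DNA glycosylase (TDG). Peaks of the 4 deposited CTCF lists that overlapped by at least 1 bp were merged into 54729 regions, and the score of each peak was turned into a percentile of its own list. Regions were selected on this score: each had a peak in all 4 lists, and its highest peak stood at or above percentile 90 in every list. This gave 1299 regions of 54729, which are 3.97% (95% exact interval 3.76 to 4.18) of the 32740 regions with a peak in all 4 lists. The other 31441 regions with a peak in all 4 lists are called other shared regions below, and 21989 regions had a peak in 1 to 3 lists. Because the score and the presence of a peak chose the regions, ranks, scores and peak widths are given as a description with no test.

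The cells were mouse embryonic stem cells of the 129 strain background, either TDG knockout (TDG KO) or wild-type (WT), both received as a gift from another laboratory. Both genotypes were grown with serum and LIF on mitotically arrested mouse embryonic fibroblasts, which were removed before use by serial plating. CTCF was measured by chromatin immunoprecipitation with sequencing in 2 TDG KO and 2 WT libraries, and polyadenylated RNA was sequenced in 2 TDG KO and 2 WT libraries. Each genotype may be a single line, and nothing in the labels ties the replicates to separate cultures. A p-value therefore reflects the spread of these libraries alone, and that spread may be technical.

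CTCF is a DNA-binding protein with a row of zinc fingers that recognises a long, variable sequence and stops cohesin, the ring complex that extrudes chromatin loops. Its strongest sites are generally bound in many cell types, and methylation of a cytosine in the site can weaken binding. TDG cuts out 5-formylcytosine and 5-carboxylcytosine, oxidised forms of methylated cytosine, and the series asks how 5-carboxylcytosine bears on binding of CTCF to suboptimal sequences. The strongest shared regions are the sites that ranked highest in both genotypes, chosen by the score of their peaks and not by their sequence.

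The sequences of 5 gene starts under a strongest shared region show what a match to the CTCF core looked like where there was one, which was in a minority of such windows. They were the highest-ranked regions whose promoter window, from 250 bases before to 50 after the gene start, held a match to the CTCF core consensus, a 12-base motif searched on both strands. The windows are from RefSeq, build GRCm38.p6 (the primary assembly of mm10), each printed 5′ to 3′ on the strand of its gene with the core match in capitals.
Nsfl1c, chr2:151493932-151494231, plus strand: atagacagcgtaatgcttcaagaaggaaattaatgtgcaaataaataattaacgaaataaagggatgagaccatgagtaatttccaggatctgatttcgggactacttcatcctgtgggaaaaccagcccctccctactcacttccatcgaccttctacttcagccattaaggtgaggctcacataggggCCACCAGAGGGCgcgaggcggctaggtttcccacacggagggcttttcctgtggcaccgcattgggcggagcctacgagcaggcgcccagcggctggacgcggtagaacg
Lsm11, chr11:45944886-45945185, minus strand: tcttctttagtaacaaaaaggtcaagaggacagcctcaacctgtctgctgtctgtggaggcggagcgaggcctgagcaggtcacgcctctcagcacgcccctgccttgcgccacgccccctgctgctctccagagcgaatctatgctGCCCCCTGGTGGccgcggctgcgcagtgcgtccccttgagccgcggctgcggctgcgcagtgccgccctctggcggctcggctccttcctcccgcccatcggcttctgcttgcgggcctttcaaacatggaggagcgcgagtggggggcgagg
Car7, chr8:104534450-104534749, plus strand: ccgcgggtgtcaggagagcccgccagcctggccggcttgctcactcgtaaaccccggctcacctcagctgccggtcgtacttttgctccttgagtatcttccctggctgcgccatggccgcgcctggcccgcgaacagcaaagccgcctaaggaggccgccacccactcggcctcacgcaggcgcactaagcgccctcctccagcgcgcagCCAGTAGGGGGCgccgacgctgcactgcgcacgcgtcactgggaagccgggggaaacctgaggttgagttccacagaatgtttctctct
Scap, chr9:110333038-110333337, plus strand: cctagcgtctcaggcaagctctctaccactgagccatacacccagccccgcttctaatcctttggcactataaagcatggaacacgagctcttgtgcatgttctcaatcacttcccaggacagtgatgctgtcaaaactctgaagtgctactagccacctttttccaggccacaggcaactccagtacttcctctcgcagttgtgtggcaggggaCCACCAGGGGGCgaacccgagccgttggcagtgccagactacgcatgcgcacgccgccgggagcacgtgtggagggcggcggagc
Snhg7, chr2:26640195-26640494, minus strand: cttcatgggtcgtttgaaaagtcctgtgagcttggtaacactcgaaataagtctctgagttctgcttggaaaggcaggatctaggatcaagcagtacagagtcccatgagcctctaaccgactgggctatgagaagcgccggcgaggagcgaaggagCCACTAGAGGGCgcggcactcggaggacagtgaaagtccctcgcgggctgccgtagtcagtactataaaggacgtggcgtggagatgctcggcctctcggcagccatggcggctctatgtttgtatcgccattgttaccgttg

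In motif orientation these matches read CCACCAGAGGGC in Nsfl1c, CCACCAGGGGGC in both Lsm11 and Scap, CCAGTAGGGGGC in Car7 and CCACTAGAGGGC in Snhg7. The match lay on the strand of the gene in Nsfl1c, Car7, Scap and Snhg7 and on the opposite strand in Lsm11. Nsfl1c encodes a cofactor of the p97 segregase, Lsm11 a protein of the U7 particle that trims histone messages, Car7 a carbonic anhydrase, Scap the escort of the sterol regulator SREBP, and Snhg7 is a host gene of small nucleolar RNAs. The region over Nsfl1c, chr2:151493952-151494335, stood at percentiles 99.8 and 100.0 in the TDG KO lists and at 100.0 and 99.9 in the WT lists. The region over Lsm11, chr11:45944514-45945251, stood at 99.8 and 99.8 in TDG KO and at 99.7 and 99.5 in WT. That over Car7, which also covers the start of Nae1 on the other strand, stood at 99.9 and 97.6 in TDG KO and at 99.5 and 97.7 in WT. All 3 thus ranked in the highest few percent of every list. The windows held 16 CpG dinucleotides in Nsfl1c, 24 in Lsm11, 28 in Car7, 15 in Scap and 20 in Snhg7. The median was 22 over all windows at strongest shared regions and 7 over all promoter windows.

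The lists differed in length, with 48514 and 48833 peaks in TDG KO and 38303 and 37099 in WT, and percentile 90 fell at a score of 83.8 and 83.7 in TDG KO and of 68.9 and 64.0 in WT. The score is the authors' value per peak, so its size was compared only within a list, and how deeply the CTCF libraries were sequenced is unknown. The selected regions had median percentiles of 97.1 and 97.6 in the TDG KO lists and of 97.2 and 97.3 in the WT lists. The highest scores of the TDG KO lists, 246.9 and 236.4, and of WT replicate 2, 194.0, belonged to selected regions, while the highest of WT replicate 1, 251.6, did not.

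At the very top, chr9:72530196-72530607, inside 4930509E16Rik, stood at percentiles 99.96 and 99.99 in TDG KO and 99.99 and 99.98 in WT. The next, chr18:75599561-75600387, inside the translation factor gene Ctif, stood at 99.94 and 99.95 in TDG KO and at 100.00 and 99.96 in WT. Of the 10 regions with the highest minimum percentile, 3 lay at a gene end, 4 inside a gene and 3 between genes. Those at a gene end were at the start of Med4, a subunit of the Mediator complex (chr14:73509717-73510145), 212 bp from an end of Gdf15, a stress-induced growth factor (chr8:70629605-70630194), and over an end of Myrf, a transcription factor of myelin formation (chr19:10240655-10241063). The regions inside genes included chr2:32912235-32912834 in Niban2 and chr6:125030359-125030938 in Zfp384, a zinc finger gene. Those between genes lay 10.7 kb from Epm2aip1, 6.3 kb from Hif1an and 13.3 kb from Rbm19.

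At the lower edge of the selection, chr5:52132018-52132495 stood at percentiles 95.34 and 90.62 in TDG KO and 92.62 in WT replicate 1, with WT replicate 2 at the threshold itself. Just below it, chr7:127800270-127800740, over an end of Hsd3b7, stood at 93.73 in TDG KO replicate 1 and 96.24 and 90.78 in WT, with TDG KO replicate 2 under 90 by less than the rounding. The 3 regions nearest to the threshold on the inside and the 3 nearest on the outside all had a lowest percentile that rounds to 90.

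Within the selection the genotypes ranked the regions alike on balance. The mean TDG KO percentile minus the mean WT percentile had a median of 0.03, with quartiles of -1.11 and 1.44, and ran between -7.37 and 7.38. The room for a difference was set by the rule, which keeps every value between 90 and 100. The median absolute difference was 1.57 between the TDG KO lists, 1.80 between the WT lists and 1.27 between the genotype means. The last value compares means over lists, which averaging makes smaller, so it cannot be set against the differences between single lists. Among other shared regions, where no such limit holds, the TDG KO minus WT median was 8.90. That value also carries the difference in list length, since a region of equal place stands at a higher percentile of a longer list. Over the 1299 regions Spearman's rho of the percentiles was 0.50 between the TDG KO lists, between 0.42 and 0.47 across the genotypes, and 0.46 between the WT lists. Over all 32740 shared regions it was 0.84 between the TDG KO lists, between 0.76 and 0.81 across the genotypes, and 0.80 between the WT lists. The rule keeps the 1299 regions to the span above percentile 90, which lowers rho by construction, so the lower values are no result about these regions. Neighbouring regions share a library and a chromosome, so these are descriptions over regions, not over replicates.

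The 3 regions with the largest TDG KO minus WT difference were all on chromosome 11. The first, chr11:113297674-113298184, inside Slc39a11, a gene of the ZIP metal transporter family, stood at 99.42 and 99.13 in TDG KO and 91.21 and 92.57 in WT. The second, chr11:7210258-7210667, inside Igfbp3, which encodes a binding protein of insulin-like growth factors, stood at 98.07 and 96.61 in TDG KO and 90.06 and 90.69 in WT. In both, each TDG KO list was above each WT list. At the other end, chr3:79854449-79854813 stood at 90.34 and 90.75 in TDG KO and 97.54 and 98.30 in WT, and the next 2 were on chromosomes 13 and 8.

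To see how firmly a high rank carried over to a list that had not been used, regions were chosen in 3 lists and measured in the fourth, with the merged regions kept as they were. Of 1620 regions at or above percentile 90 in the other 3 lists, 80.2% (78.2 to 82.1) were also there in TDG KO replicate 1. The share was 84.4% (82.5 to 86.2) of 1539 regions in TDG KO replicate 2, 75.2% (73.1 to 77.2) of 1727 in WT replicate 1 and 72.6% (70.5 to 74.7) of 1789 in WT replicate 2. The number below percentile 80 was 62 and 37 in the TDG KO lists and 164 and 170 in the WT lists. The lowest percentile was 61.8 and 61.1 in the TDG KO lists and 50.0 and 47.9 in the WT lists, and 0 regions lacked a peak. The choosing lists were mostly TDG KO where a WT list was measured and mostly WT where a TDG KO list was measured. The lists also differed in length, so these shares do not compare the genotypes. The intervals are exact binomial ones that cover counting error only, and neighbouring regions are not independent.

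**Figure D1:**
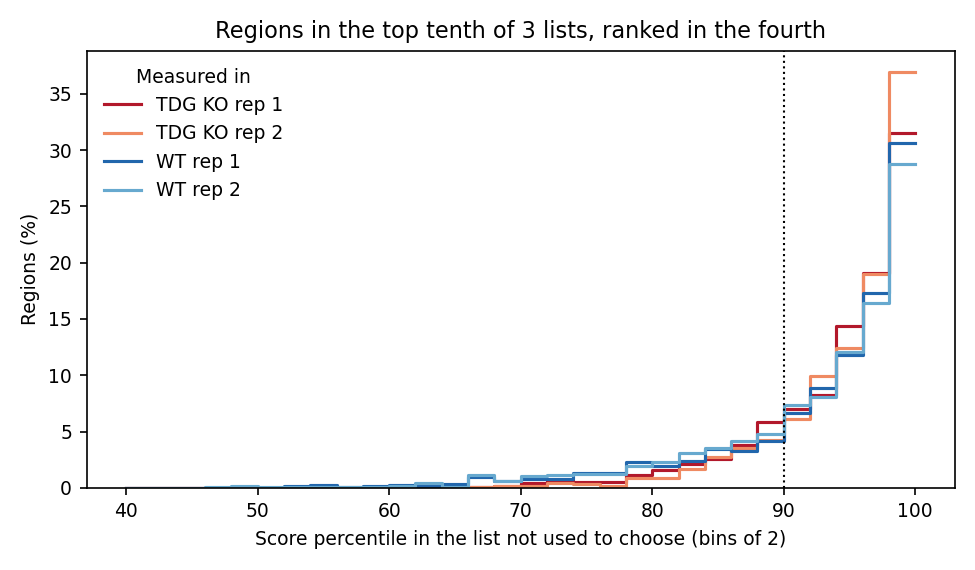
Regions at or above percentile 90 in 3 CTCF lists, by their score percentile in the fourth list (x axis, bins of 2 percentiles) as a percent of the regions so chosen (y axis). The 4 lines are the list measured, and the dotted line marks percentile 90. In every list most regions stood to the right of it, 80.2% and 84.4% in TDG KO and 75.2% and 72.6% in WT. The choosing lists differ between the lines in genotype and length, so the lines do not compare the genotypes.

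Single lists predicted each other less well. Of the regions at or above percentile 90 in a list, between 55.0% and 62.1% were also there in the other list of the same genotype, and between 45.7% and 64.6% in a list of the other genotype. The second range followed direction, with 45.7% to 50.8% for regions chosen in TDG KO and measured in WT and 59.7% to 64.6% for those chosen in WT and measured in TDG KO. Percentile 90 admits more regions in the longer TDG KO lists (4849 and 4874) than in the WT lists (3833 and 3706). With each list limited to as many peaks as the shortest, the shares were 57.9% within TDG KO, 50.3% to 55.0% between genotypes and 55.7% within WT. Both within-genotype shares were above all between-genotype shares. The interval within WT (54.1 to 57.3) overlapped that of the highest share between genotypes (53.4 to 56.6). At full list length the mean shares were 59.0% within and 54.8% between genotypes. Without chromosome 11, a choice made after seeing the data, they were 58.2% and 56.2%. At full list length and with chromosome 11 included, regions high in both TDG KO lists numbered 3011. Of these, 43.1% were high in both WT lists and 26.4% in neither. Regions high in both WT lists numbered 2109, of which 61.6% were high in both TDG KO lists and 11.6% in neither. These shares were not computed with lists of equal length or without chromosome 11, so they are not compared between the genotypes.

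Chromosomes were unequally represented. On the autosomes between 2.43% (chromosome 16, 23 of 948) and 5.60% (chromosome 17, 83 of 1482) of shared regions were selected. Chromosome X gave 3 of 690 (0.43%, 0.09 to 1.27), and chromosome Y 0 of 22, which allows up to 15.44%. Of the shared regions on X, 1.0% and 0.9% were at or above percentile 90 in the TDG KO lists and 7.5% and 5.7% in the WT lists, so both TDG KO lists were below both WT lists. On Y, 0.0% and 0.0% of the 22 shared regions were so ranked in the TDG KO lists and 54.5% and 27.3% in the WT lists. Chromosome 11 gave 113 of 2278 (4.96%, 4.11 to 5.93), above the 3.97% over all chromosomes and within the range of the autosomes. Its shared regions, though, were at or above percentile 90 in 46.3% and 30.6% in the TDG KO lists and in 7.0% and 14.1% in the WT lists, against 14.8% and 14.9% in TDG KO and 11.7% and 11.3% in WT over all chromosomes. The median TDG KO minus WT percentile was 2.19 in the selected regions of chromosome 11 and 23.67 in its other shared regions. RNA of chromosome 11 was also higher in TDG KO, in 66.0% of 1014 tested genes. With possibly a single line per genotype, loss of TDG and any other difference between the lines in these chromosomes cannot be told apart, which also holds for the chromosome 11 genes named below. The number of copies of each chromosome in the lines was not tested.

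**Figure D2:**
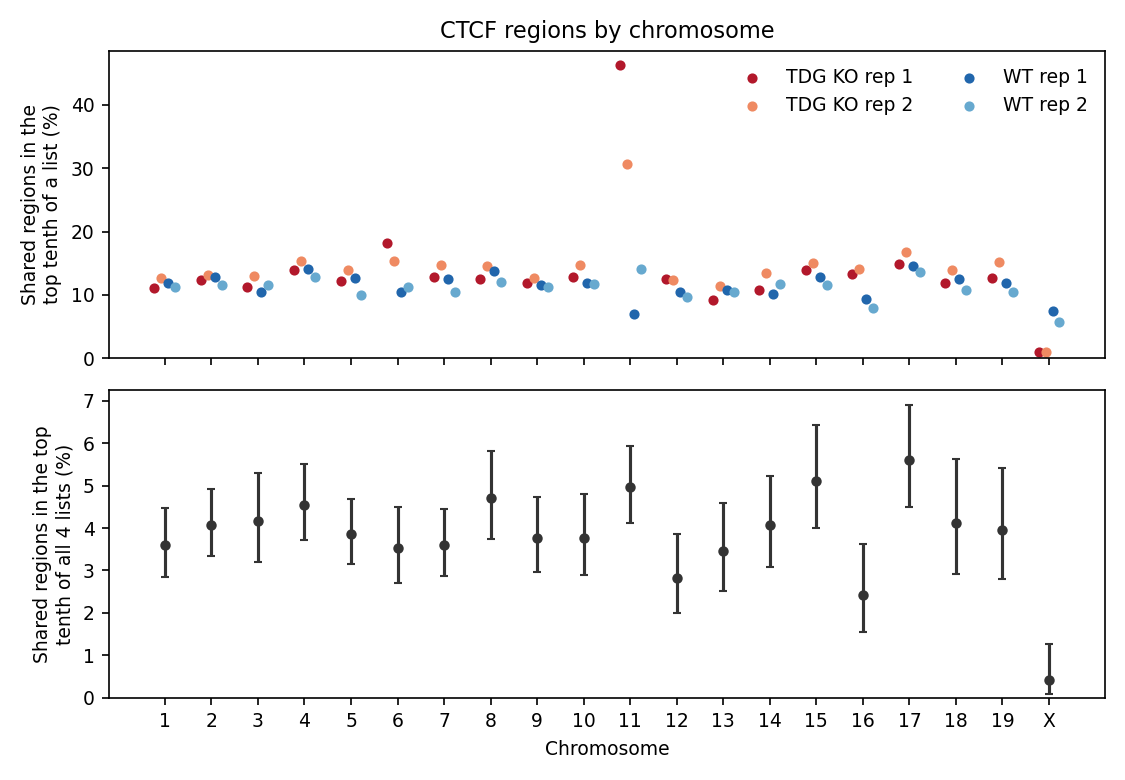
Shared CTCF regions by chromosome. The upper panel gives the percent of shared regions at or above percentile 90 in each of the 4 lists, and the lower panel the percent so ranked in all 4 lists, with 95% exact binomial intervals as bars. Chromosome 11 stood at 46.3% and 30.6% in the TDG KO lists, and chromosome X was the lowest of the chromosomes drawn in the lower panel at 0.43%. Chromosome Y, with 22 shared regions, is not drawn.

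Peaks of the selected regions were wider than those of other shared regions in every list. Median widths were 420 and 393 bp in TDG KO and 364 and 334 bp in WT, while other shared regions had 330 and 313 bp in TDG KO and 276 and 263 bp in WT. The peak was wider in both TDG KO lists than in both WT lists in 623 of the 1299 regions (48.0%), against a background of 52.7% of all shared regions, and narrower in both in 25 (1.92%), against 2.12%. Both shares are near their background and are no result about the selected regions. On chromosome 11 the wider share was 97 of 113 regions (85.8%), beside 87.3% of all shared regions of that chromosome, and without chromosome 11 it was 44.4%, beside 50.1%. The centres of a region's 4 peaks lay a median of 44.0 bp apart from the first to the last, so the lists placed the peaks close together.

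**Figure D3:**
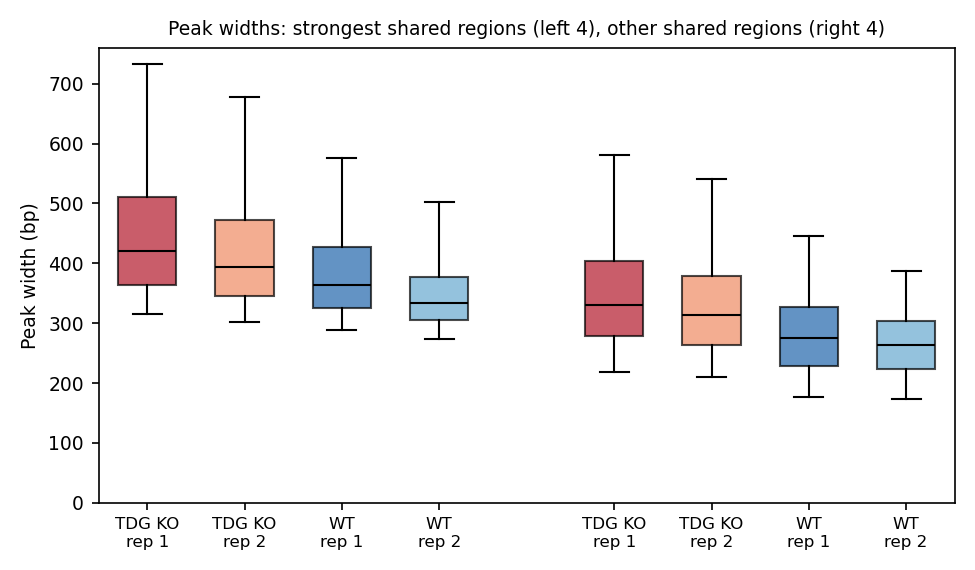
Peak widths in bp in the 4 lists, for the strongest shared regions (left 4 boxes) and other shared regions (right 4 boxes). Boxes span the quartiles with the median as a line, and whiskers run between percentiles 5 and 95. The medians of the strongest shared regions, 420 and 393 bp in TDG KO and 364 and 334 bp in WT, were above those of other shared regions in each list.

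The position relative to genes was not used to choose the regions, and here they differed from the rest. A gene end lay inside or within 1 kb of 27.5% (25.1 to 30.0) of the selected regions, 16.4% (16.0 to 16.8) of other shared regions and 13.6% (13.2 to 14.1) of regions in 1 to 3 lists. Inside genes and away from their ends lay 42.1% of the selected regions and 49.0% of other shared regions, and between genes 30.4% and 34.6%. Exons, introns and untranslated regions were not told apart, since the annotation used gives only the outer ends of a gene. The share at gene ends was 31.2% at or above percentile 95 in all lists and 24.1% at or above percentile 80. Intervals of the selected and other shared regions did not overlap for any of the 3 positions, and no p is given because regions are not independent samples.

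Part of the excess at gene ends lay around gene starts, on both sides and most of all just upstream. With the strand known from the promoter windows, the centre of 202 of 1262 selected regions (16.0%, 14.0 to 18.1) was within 1 kb of a gene start, against 6.9% of other shared regions and 5.9% of regions in fewer lists. Of the 202, 141 were centred upstream of the start. The median distance to the nearest start was 12.5 kb, against 18.3 kb in other shared regions, and 6.1% of selected regions were over 100 kb from a start, against 10.7%. Starts of genes on both strands lay within 1 kb of 24 regions. These counts leave out chromosome 18, for which no promoter windows were used here.

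**Figure D4:**
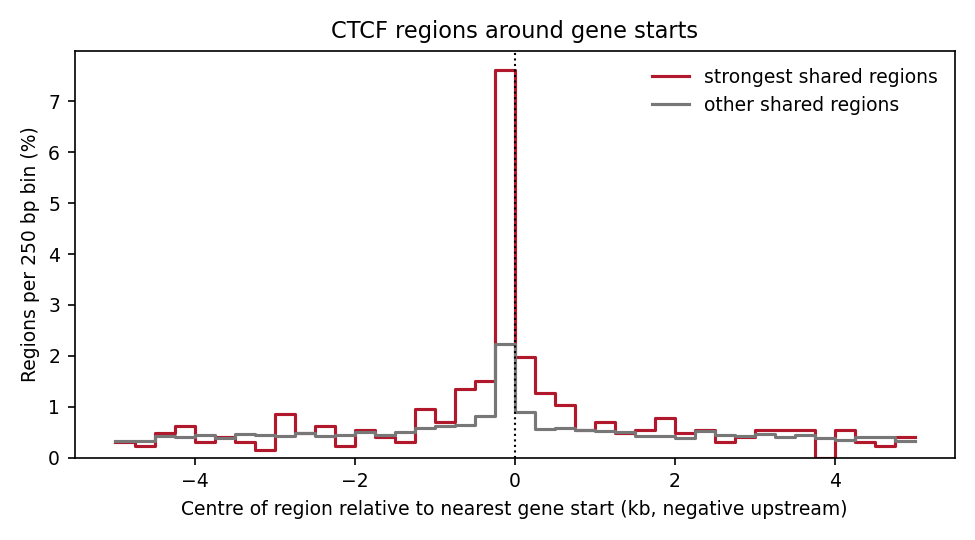
Distance of region centres to the nearest gene start in kb (x axis, negative is upstream) in bins of 250 bp, as a percent of all regions of the class (y axis). The strongest shared regions peaked in the bin just upstream of the start, higher than other shared regions. Within 1 kb of a start lay 16.0% of the strongest shared and 6.9% of other shared regions.

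Sequence was also not used by the rule. Of 166 promoter windows that overlapped a selected region, 24 (14.5%, 9.49 to 20.7) held a match to the CTCF core consensus. The share was 9.04% (7.56 to 10.7) of 1338 windows that overlapped another shared region, 1.06% of 564 windows under regions in fewer lists, 0.557% of all 32851 windows and 0.107% of windows under no CTCF region. The intervals of selected and other shared regions overlapped, so a difference between them was not shown at this number of windows. In windows wholly inside a region the shares were 17.1% of 82 and 17.4% of 374. With 1 mismatch allowed, 47.0% of windows at selected regions, 32.5% at other shared regions and 4.3% of all windows matched. The short core AGGNGGC, read on both strands and contained in part of the core matches, was in 65.1%, 53.3% and 29.4%. A match describes the letters and is not proof of a bound site. Windows at selected regions had a median GC content of 62.0% and 22 CpG dinucleotides, while windows at other shared regions had 59.7% and 18. Windows under regions in fewer lists had 60.0% and 17, close to those at other shared regions, with a core share of 1.06%. The part of base composition in these shares was not tested.

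The matches sat at the centre of the peaks. The 24 windows held 21 distinct matches in 21 of the 147 selected regions under a window. Their distance to the mean peak centre had a median of 10 bp and a range of 2 to 138 bp, and 18 of 21 were within 50 bp. Relative to the genes, 15 were on the strand of the gene that starts there and 4 on the opposite strand. The other 2, at Car7 and Nae1 and at Rgs9 and Gm39441, were by the starts of genes on both strands.

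Some loci long studied for CTCF or for pluripotency had a strongest shared region nearby and others did not. The nearest to Shh, a morphogen gene whose domain ends at CTCF sites, was 2.4 kb away (chr5:28469521-28470152) at percentiles 96.8 and 94.9 in TDG KO and 97.6 and 94.4 in WT. The nearest to Ctcf itself was 2.8 kb away (chr8:105685698-105686075) at 96.0 and 99.1 in TDG KO and 98.7 and 96.8 in WT. Nanog, a core factor of pluripotency, had 2 within 50 kb, the nearer 5.3 kb away (chr6:122719892-122720385) at 99.2 and 94.1 in TDG KO and 95.1 and 95.9 in WT. In these loci the genotypes overlapped. Hoxa13 had one 36.8 kb away, Pou5f1 46.0 kb and Klf4 46.3 kb away. The H19 locus, the classical imprinted CTCF site, had 2 shared regions within 50 kb and none of the strongest, the nearest of which was 341.1 kb away. Sox2 (922.0 kb), Myc (827.4 kb), Tdg (1077.8 kb) and Xist (8594.4 kb) were farther.

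By gene group, ends with a strongest shared region were rare. In all, 420 of 49603 RefSeq genes (0.85%) and 282 of 21779 protein-coding genes (1.29%) had such a region within 1 kb of an end. Among 25 genes of CTCF and cohesin, a list that also holds other factors such as Yy1 and Maz, there were 2 (8.00%, exact interval 0.98 to 26.03). These were Esco1, which acetylates cohesin, and Pds5b, a regulator of cohesin release. There were 0 of 22 pluripotency genes, 0 of 34 imprinted genes, 0 of 28 genes of DNA methylation and base excision repair and 0 of 39 Hox genes, which allow up to 15.44%, 10.28%, 12.34% and 9.03%. The intervals of the 4 lists at 0 include the share over all genes. That of the CTCF and cohesin list begins just above it and includes the share over protein-coding genes, and it rests on 2 genes.

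RNA was not used to choose the regions. The deposited values are FPKM (fragments scaled by transcript length and by mapped fragments), a level per length, and the tests are limma on log2(FPKM + 1) with Benjamini-Hochberg adjustment over the 12035 genes whose mean FPKM reached 1. Tdg, the gene knocked out, was at 5.50 and 4.74 FPKM in TDG KO and 28.1 and 30.4 FPKM in WT. The stem cell genes Pou5f1, Sox2, Nanog and Zfp42 were at 116 FPKM or more in every library. Pou5f1 was called lower in TDG KO (log2 change -0.56, adjusted p = 0.00189) and Nanog higher (log2 change 0.31, adjusted p = 0.00967). Sox2 and Zfp42 were not called. RNA of fibroblast markers differed between the libraries. The 8 markers summed to 97.0 and 111 FPKM in TDG KO and 209 and 126 FPKM in WT. Of the 8, 6 passed the test as lower in TDG KO, beside 29.5% of all tested genes, and none was at 0. Whether the fibroblast marker RNA came from feeder cells was not tested, nor was its part in the RNA results below. In bulk RNA fewer cells of a type and less RNA per cell cannot be told apart. Ctcf RNA was at 42.4 and 41.1 FPKM in TDG KO and at 48.8 and 52.5 FPKM in WT, a log2 change of -0.27 (SE 0.064, adjusted p = 0.0118), with both TDG KO libraries lower. With TDG KO replicate 2 left out the adjusted p was 0.0547, and with WT replicate 2 left out it was 0.0846, so either omission ended the call.

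Genes with a strongest shared region at an end changed about as often as other genes. Of the 420, 335 had an FPKM and 212 were tested, with 123 below the mean of 1. Of the 212, 58 were higher in TDG KO (27.4%, against a background of 24.4% of all tested genes), 56 were lower (26.4%, against 29.5%) and 98 were not called. The median log2 change was -0.03, against -0.04 over all tested genes. Both shares are near the background, and with an other shared region at an end and none of the strongest the shares of 2250 tested genes were 27.6% higher and 25.9% lower. Of the 25 tested genes on chromosome 11, 17 were higher and 0 lower, beside 66.0% higher and 5.3% lower of all tested genes of that chromosome. Without chromosome 11, a choice made after seeing the data, 41 of 187 were higher (21.9%, background 20.6%) and 56 lower (29.9%, background 31.8%). Where the region lay at the start, 32 of 122 genes were higher and 31 lower, and at the far end 11 of 40 were higher and 15 lower.

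**Figure D5:**
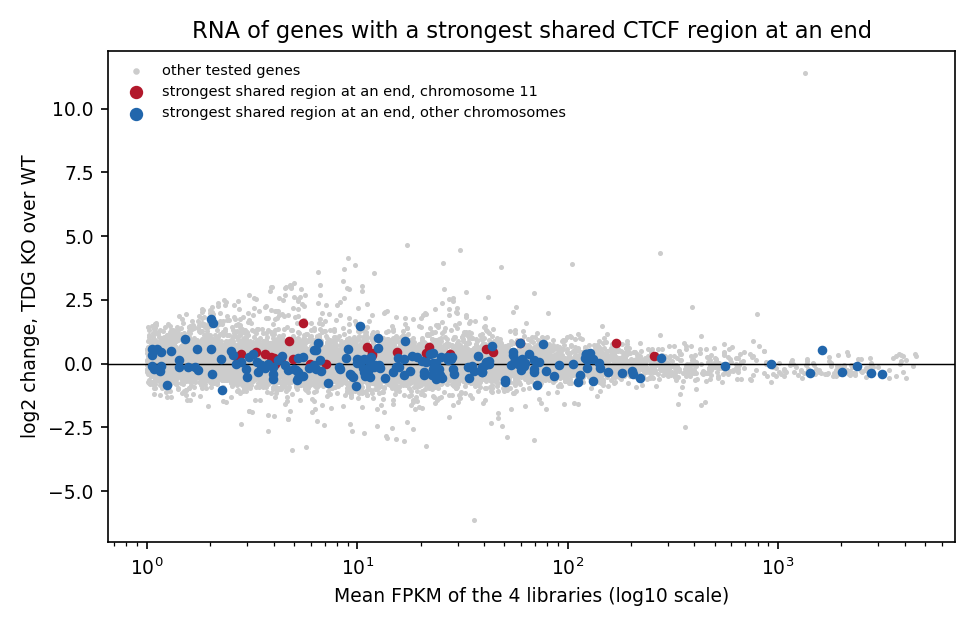
log2 change in TDG KO over WT (y axis) against the mean FPKM of the 4 libraries on a log axis (x axis) for all tested genes (grey) and for genes with a strongest shared CTCF region within 1 kb of an end, on chromosome 11 (red, 25 genes) and on other chromosomes (blue, 187 genes). The coloured genes lay on both sides of 0 within the grey ones, and 17 of the 25 on chromosome 11 were called higher.

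The level of RNA, as distinct from its change, is given as a description. Genes whose start lay within 1 kb of one had a median of 6.13 FPKM (203 genes with a value), and 70.9% had a mean of at least 1 FPKM. Genes with their start by an other shared region had a median of 3.63 FPKM and 63.9%, and all genes with a promoter window 0.737 FPKM and 47.9%. Levels are means of the 4 libraries, and no p is given.

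Among called genes averaging 5 FPKM or more whose genotypes did not overlap, the 8 with the highest log2 change had different roles, and 3 of them were on chromosome 11. Specc1, which encodes a coiled-coil protein, was at 9.29 and 8.34 FPKM in TDG KO and 2.15 and 2.30 FPKM in WT, a log2 change of 1.60 (SE 0.089, adjusted p = 3.82e-05), with a region over its start (chr11:61956539-61957007). Irak2, a kinase of interleukin-1 and Toll-like receptor signalling, was at 15.0 and 16.0 FPKM in TDG KO and 4.57 and 5.43 FPKM in WT, a log2 change of 1.46 (SE 0.092, adjusted p = 6.56e-05). The region over its start (chr6:113638094-113638676) ranked at 99.7 and 99.6 in TDG KO and 94.2 and 98.7 in WT, so RNA and rank were both higher in TDG KO at Irak2. Steap1, of a family of metal reductases, was at 17.0 and 17.3 FPKM in TDG KO and 7.56 and 8.43 FPKM in WT, a log2 change of 1.01 (SE 0.076). Its start lay in chr5:5749172-5749636, where the ranks of the genotypes overlapped, 98.9 and 95.5 in TDG KO and 95.6 and 96.0 in WT.

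Clu, a secreted chaperone, was at 21.9 and 22.3 FPKM in TDG KO and 12.2 and 10.8 FPKM in WT, with a region 508 bp from an end. Myrf, whose end lies in the region that ranked among the 10 highest, was at 8.95 and 8.03 FPKM in TDG KO and 3.97 and 4.97 FPKM in WT, a log2 change of 0.80 (SE 0.11, adjusted p = 0.00131). That region stood at 99.98 and 99.88 in TDG KO and 99.88 and 99.83 in WT, a TDG KO minus WT difference of 0.07. Csrp1, a LIM domain protein, was at 72.7 and 78.7 FPKM in TDG KO and 43.9 and 41.9 FPKM in WT, while its region ranked lower in TDG KO, at 98.0 and 98.6, against 99.8 and 99.3 in WT. Traf4, a signalling adaptor, and Lrrc59, a ribosome-binding protein of the endoplasmic reticulum, are on chromosome 11 with Specc1. Traf4 was at 75.6 and 76.6 FPKM in TDG KO and 42.4 and 43.5 FPKM in WT, and Lrrc59 at 210 and 221 FPKM in TDG KO and 123 and 125 FPKM in WT. All 8 passed the test, with both TDG KO libraries above both WT libraries, as the naming rule required. The rank of the region was higher in both TDG KO lists at 4 of the 8 (Irak2, Traf4, Myrf and Lrrc59), lower in both at Csrp1 and overlapping at Specc1, Steap1 and Clu. How many of all 1299 regions ranked so was not counted, so these counts have no background and are no result about the genes. On chromosome 11, which holds Traf4 and Lrrc59, the selected regions had a median TDG KO minus WT percentile of 2.19.

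The 8 genes with the lowest log2 change ran between -0.86 and -0.61, a narrower span than the 0.79 to 1.60 of the highest 8. The naming rule left out 1 gene with a region at an end that was called lower by at least 1 on the log2 scale. Over all tested genes 435 were called higher and 157 lower by at least that much, so the narrower span is no result about these genes. Itpk1, an inositol phosphate kinase, was at 50.3 and 50.7 FPKM in TDG KO and 91.8 and 93.1 FPKM in WT, a log2 change of -0.86 (SE 0.056, adjusted p = 7.59e-05). Its region lay 283 bp before the start (chr12:102705152-102705635), at 97.0 and 96.4 in TDG KO and 98.2 and 95.8 in WT. Ap1m2, a subunit of the clathrin adaptor AP-1 of epithelia, was at 5.12 and 5.18 FPKM in TDG KO and 9.87 and 8.93 FPKM in WT. Here the region was also lower in TDG KO in both lists, at 90.9 and 92.2, against 99.6 and 95.4 in WT. Dtl, which directs a ubiquitin ligase to replication proteins, was at 39.2 and 38.7 FPKM in TDG KO and 61.0 and 63.6 FPKM in WT, with a region 184 bp from its start at 94.3 and 95.7 in TDG KO and 99.1 and 97.3 in WT. Rank and RNA thus went the same way at Ap1m2 and Dtl, and the ranks at Itpk1 overlapped.

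Gnpda1, which deaminates glucosamine-6-phosphate, was at 37.6 and 37.6 FPKM in TDG KO and 63.6 and 62.1 FPKM in WT, while its region ranked higher in TDG KO, at 94.7 and 95.2, against 94.2 and 90.9 in WT. Psrc1, a protein of the mitotic spindle, was at 83.0 and 85.7 FPKM in TDG KO and 142 and 135 FPKM in WT. Hnrnpdl, an RNA-binding protein, was at 101 and 101 FPKM in TDG KO and 162 and 166 FPKM in WT. In these genes the genotypes did not overlap, as the naming rule required. Ror2, a receptor of Wnt5a, was at 3.86 and 3.73 FPKM in TDG KO and 7.05 and 6.04 FPKM in WT, with a region at its far end. Ivd, an enzyme of leucine breakdown, averaged 18.4 ± 0.672 FPKM in TDG KO and 28.7 ± 1.43 FPKM in WT (SD, n = 2 each), also with a region at its far end. The rank of the region was lower in both TDG KO lists at 3 of these 8 (Ap1m2, Psrc1 and Dtl), higher in both at Gnpda1 and overlapping at the other 4. These counts, too, have no background over all selected regions and are no result about the genes. None of the 8 is on chromosome 11.

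Esco1 was at 8.14 and 7.52 FPKM in TDG KO and 9.81 and 11.4 FPKM in WT, a log2 change of -0.39 (SE 0.091, adjusted p = 0.0108), a call that ended when TDG KO replicate 2 (adjusted p = 0.0714) or WT replicate 2 (adjusted p = 0.0669) was left out. Pds5b was at 12.9 and 11.3 FPKM in TDG KO and 13.4 and 14.0 FPKM in WT, a log2 change of -0.16 (SE 0.082, adjusted p = 0.138), which did not pass. In the whole list of CTCF and cohesin genes, with the other factors it holds, 4 of 24 tested genes were higher and 13 lower, where 24.4% and 29.5% of all tested genes were. The other lists, none of whose genes had a strongest shared region at an end, gave 6 higher and 12 lower of 22 pluripotency genes, 12 and 4 of 25 imprinted genes, 8 and 12 of 27 genes of DNA methylation and base excision repair, and 0 and 2 of 2 Hox genes.

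Of the 23 genes whose start window held a core match under a strongest shared region, 19 had an FPKM and 16 were tested, of which 1 was higher, 4 were lower and 11 were not called, beside 24.4% higher and 29.5% lower of all tested genes. The higher gene was Lsm11 on chromosome 11, at 6.30 and 6.64 FPKM in TDG KO and 3.04 and 2.95 FPKM in WT, a log2 change of 0.90 (SE 0.081, adjusted p = 0.000249). Among the lower were Ext2, a polymerase of heparan sulphate, at 20.0 and 21.4 FPKM in TDG KO and 28.7 and 29.3 FPKM in WT (log2 change -0.47), and Zzz3, a subunit of the ATAC acetyltransferase (log2 change -0.44, SE 0.062, adjusted p = 0.00139). Both TDG KO libraries were below both WT libraries in these genes. Fam133b (log2 change -0.31, adjusted p = 0.0111) lost its call when TDG KO replicate 1 (adjusted p = 0.0583) or WT replicate 2 (adjusted p = 0.0734) was left out. Rint1 (log2 change -0.48, adjusted p = 0.0139) lost it when genes of any level were tested (adjusted p = 0.0719) and when TDG KO replicate 2 (adjusted p = 0.0957) or WT replicate 1 (adjusted p = 0.0670) was left out. Nsfl1c, under the highest-ranked of these sites, was at 139 and 145 FPKM in TDG KO and 141 and 138 FPKM in WT, and Scap at 11.7 and 11.4 FPKM in TDG KO and 12.7 and 10.3 FPKM in WT, and in both the genotypes overlapped. Car7 was below the filter, at 0.736 and 0.861 FPKM in TDG KO and 0.301 and 0.326 FPKM in WT.

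Of 12 tested genes at or nearest to the 10 highest-ranked regions, 2 were higher, 1 was lower and 9 were not called, beside 24.4% higher and 29.5% lower of all tested genes. The higher genes were Myrf, described above, and Zfp384, and the lower was Hif1an. Med4 was at 57.5 and 59.1 FPKM in TDG KO and 51.5 and 55.7 FPKM in WT (log2 change 0.12, adjusted p = 0.158). Hif1an, an oxygen-sensing hydroxylase, was at 10.8 and 9.95 FPKM in TDG KO and 12.6 and 12.8 FPKM in WT (log2 change -0.27, adjusted p = 0.0197), but not past the threshold without TDG KO replicate 2 (adjusted p = 0.0846), WT replicate 1 (adjusted p = 0.0724) or WT replicate 2 (adjusted p = 0.0913). Zfp384 was at 26.9 and 28.2 FPKM in TDG KO and 24.2 and 24.4 FPKM in WT (log2 change 0.17, adjusted p = 0.0497), at the edge of the threshold, and lost its call in 7 alternatives with adjusted p between 0.0510 and 0.174. At the 3 chromosome 11 regions with the largest rank difference, Slc39a11 and Igfbp3 were higher, and Slc36a1os was below the filter, at 0.0623 and 0.0760 FPKM in TDG KO and 0.106 and 0.164 FPKM in WT. Slc39a11 had a log2 change of 0.49 (SE 0.064, adjusted p = 0.00104), and Igfbp3 at 38.1 and 40.5 FPKM in TDG KO and 22.4 and 15.7 FPKM in WT (log2 change 1.03, adjusted p = 0.00154). In Slc39a11 and Igfbp3 each TDG KO library was above each WT library.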

How the data were processed

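Per the labels, CTCF was immunoprecipitated from sheared chromatin with an anti-CTCF antibody, and RNA was polyadenylated. Tools listed in the submitters' processing notes are Bowtie2 2.2.9, MACS2 2.2.1, deepTools, TopHat2 2.1.1, Cufflinks 2.2.1 and Cuffdiff with mm10, without roles. Each CTCF library has its own peak list, in which the authors deposited a score for every peak. The meaning of this score, the control and the threshold of the peak caller were not given in the sources used. The deposited RNA table holds FPKM of 46939 genes, so depth is unknown. The deposited table of the authors' own comparison gives mean FPKM, log2 folds of WT over TDG KO, test scores, p-values and q-values, and none of its values is printed. RNA polymerase II, IgG and input libraries were not analysed here.

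Percentiles were ranks of the score within a list, and a region took its highest peak. Gene ends came from RefSeq (GRCm38.p6), which matched 98.7% of the tested genes and gives no strand or exons; genes placed before 3 Mb of a chromosome other than Y were left out, since entries on alternate scaffolds carry scaffold positions. Promoter windows do not cover all genes, and core matches could be sought only there. The RNA test was limma 3.58.1 (R 4.3.3), fitted with a trend to log2(FPKM + 1), 2-sided, at an adjusted p under 0.05; changes on this scale are understated for low genes. Whether reads were assigned by strand was not given in the sources used, which leaves overlapping genes and close copies uncertain. Regions and figures used Python 3.11.15, numpy 2.4.6, pandas 2.3.3, scipy 1.17.1 and matplotlib 3.10.9. Both procedures were run on simulated data as a check of the code only, with the scores of planted regions set above all others.

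The regions, gene lists and tests were chosen with earlier results of these data known. Named regions were the 10 highest by minimum percentile, those nearest the threshold, the 3 with the largest and the 3 with the lowest TDG KO minus WT difference, and those nearest to fixed loci. Named genes were Tdg, Ctcf, the 8 called genes highest and the 8 lowest by log2 change with a region within 1 kb of an end, a mean FPKM of at least 5 and no overlap of the genotypes, and list genes with such a region. Genes with a core match, genes by the named regions and the marker genes were chosen after their values were seen. Alternatives covered the percentile, overlap, ties, list length, distance to a gene end, pseudocount, filter, scaling, replicate block, motif and left-out libraries.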

Additional observations from a re-analysis of the deposited data

How the results depend on the processing

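The number of strongest shared regions was 3798 at or above percentile 80 and 522 at 95, and between 1540 and 1789 when peaks of only 3 lists were merged and ranked (1540 without TDG KO replicate 2, where the regions of all 4 lists gave 1539). The mean share of a list's high regions found in another list was 59.0% within genotypes (70.2% at percentile 80, 51.0% at 95) and 54.8% between genotypes (67.1% and 46.4%). The share at a gene end was 11.8% with the end inside the region, 57.3% within 5 kb, 24.1% at percentile 80 and 31.2% at 95. Genes higher in TDG KO numbered 22, 154, 150 and 36 under these 4 settings and genes lower 23, 128, 122 and 23, as the number tested changed (101, 506, 504 and 109). The share of windows with a core match was 65.1% for the short core and 47.0% with 1 mismatch. Leaving out 1 RNA library gave 42 to 56 higher and 41 to 52 lower genes with a region at an end. Without chromosome 11, an alternative chosen after seeing the data, there were 1186 regions, 26.6% at a gene end, and a core share of 12.2%. Replicate numbers did not pair the RNA libraries: deviations of same-numbered libraries correlated at -0.02 over 12035 genes, and a replicate block gave 64 higher and 58 lower genes with a region at an end and 3030 and 3666 over all genes. With no filter on FPKM the excess of lower over higher calls among all genes turned, at 3345 higher and 2886 lower, and it also turned with upper-quartile scaling, at 3238 and 3167, with 70 higher and 55 lower genes with a region at an end. Of 463 values of 53 named genes under the alternatives, 429 kept their direction and side of the threshold, 20 lost and 4 gained a call, and 10, of 7 genes not called in either setting, changed sign. The CTCF lists hold no counts, so depth sets no interval on a rank.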

Other observations

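The strongest shared regions were scattered. The median gap between neighbours on a chromosome was 547 kb, the shortest was 176 bp and the longest 86.6 Mb, and 37 of 1279 gaps were under 10 kb, 7 of them under 2 kb. They lay closer to other CTCF sites than shared regions in general: the nearest shared region was a median of 9.2 kb away and 52.6% had one within 10 kb, against 12.2 kb and 44.9% for other shared regions.

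Among the 21 distinct core matches under strongest shared regions, CCACCAGGGGGC was the most frequent site, in 5, followed by CCAGCAGGGGGC in 4 and CCAGCAGAGGGC in 3. Among 109 matches under other shared regions, CCACCAGGGGGC was in 21, CCAGCAGAGGGC in 19 and CCAGCAGGGGGC in 12. A G followed the core in 16 of 21 matches (76.2%, exact interval 52.8 to 91.8) and in 60 of 109 (55.0%, 45.2 to 64.6), a measure chosen after seeing the data, and the intervals overlapped.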
